A study of Mus musculus with 6 samples.

Results

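Interferon-stimulated antiviral genes are genes that cells switch on when an interferon binds its receptor, and 35 such mouse genes were taken from a list of names. Array probes were assigned to genes by matching their transcript accessions to RefSeq, and 33 of the 35 genes had a probe among the 23787 genes named in this way. Mx1 and Mx2 had no named probe here and have no values. The RNA came from mouse fallopian tube (FT) organoids, which are epithelial cultures grown from the oviduct of female mice, and 6 cultures were hybridised to 6 one-colour (Cy3) Agilent arrays with 1 array in each group. The control culture was grown from tissue of Trp53flox/flox mice with the vector pLKO.1 in it, and a further culture had lost Trp53, the gene of the tumour suppressor p53. The other cultures combined Trp53 loss with Pik3caH1047R, an activating mutant of the catalytic subunit of PI3-kinase, or with Apc580D, an allele of the Wnt antagonist Apc. Each of these double-mutant lines was sampled before it was inoculated under the skin and again as organoids grown out of the resulting lesion, labelled adenocarcinoma for Pik3caH1047R and cyst for Apc580D. Values are listed throughout in the sequence of control, then Trp53 loss, Pik3ca/Trp53, Pik3ca/Trp53 tumour-derived, Apc/Trp53 and Apc/Trp53 tumour-derived, which are the names of the 6 groups. Per the labels, the serum-free medium contained CHIR-99021 (an inhibitor of GSK3), Y27632 (a kinase inhibitor), Jagged-1, Noggin, R-spondin1 and EGF. The sources used here do not give how Trp53 was removed, whether the mutant cultures carry the vector, the number of animals or clones, or the strain of the recipient mice.

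Type I and type III interferons signal through JAK1 and TYK2 to a complex that holds STAT2 and IRF9, which enters the nucleus and binds the interferon-stimulated response element in the promoters of its target genes. The targets include enzymes that degrade or trap viral RNA, proteins that deplete nucleotides, the sensors of viral nucleic acid, the ubiquitin-like modifier ISG15 and the transcription factors of the pathway itself, so that a response feeds its own components. The oviduct is an epithelium open to the outside, and the female reproductive tract is known for a type I interferon of its own, interferon epsilon (Ifne).

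The promoters of 5 members that moved together and of 1 that barely moved are shown first, because the sequence bound by the STAT and IRF complex is what the group is known to share. They cover 250 bases before and 50 after the transcription start, as listed by RefSeq for GRCm38.p6 (1 of the listed starts for Apol9b), and are written 5′ to 3′ in the direction of transcription. Capitals mark matches to the response element letters GAAANNGAAA on either strand (TTTCNNTTTC on the other), with overlapping matches joined.
Isg15, chr4:156200769-156201068, minus strand: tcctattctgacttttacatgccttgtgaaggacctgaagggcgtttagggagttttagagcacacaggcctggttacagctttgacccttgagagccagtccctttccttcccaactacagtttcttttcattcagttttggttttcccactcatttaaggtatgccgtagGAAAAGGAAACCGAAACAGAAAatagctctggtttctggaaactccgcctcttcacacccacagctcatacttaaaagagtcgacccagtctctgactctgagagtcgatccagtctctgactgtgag
Ifit1, chr19:34640639-34640938, plus strand: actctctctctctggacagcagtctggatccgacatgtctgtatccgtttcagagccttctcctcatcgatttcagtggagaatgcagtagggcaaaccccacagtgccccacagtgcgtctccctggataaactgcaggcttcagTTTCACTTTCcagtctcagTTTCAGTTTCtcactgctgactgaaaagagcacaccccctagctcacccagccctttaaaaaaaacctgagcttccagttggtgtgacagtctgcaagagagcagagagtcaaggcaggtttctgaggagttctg
Ifit3, chr19:34583279-34583578, plus strand: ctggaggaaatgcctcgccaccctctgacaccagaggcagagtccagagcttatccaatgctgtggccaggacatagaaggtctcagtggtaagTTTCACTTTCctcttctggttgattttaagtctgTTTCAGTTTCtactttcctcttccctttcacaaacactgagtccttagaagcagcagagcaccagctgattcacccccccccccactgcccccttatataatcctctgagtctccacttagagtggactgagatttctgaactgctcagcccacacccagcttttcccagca
Apol9b, chr15:77728822-77729121, plus strand: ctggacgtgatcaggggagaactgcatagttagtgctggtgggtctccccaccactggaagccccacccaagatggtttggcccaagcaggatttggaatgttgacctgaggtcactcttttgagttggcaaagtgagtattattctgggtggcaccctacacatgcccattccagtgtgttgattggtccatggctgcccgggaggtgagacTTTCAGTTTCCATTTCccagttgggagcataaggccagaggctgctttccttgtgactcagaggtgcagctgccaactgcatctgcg
Oas1a, chr5:120907476-120907775, minus strand: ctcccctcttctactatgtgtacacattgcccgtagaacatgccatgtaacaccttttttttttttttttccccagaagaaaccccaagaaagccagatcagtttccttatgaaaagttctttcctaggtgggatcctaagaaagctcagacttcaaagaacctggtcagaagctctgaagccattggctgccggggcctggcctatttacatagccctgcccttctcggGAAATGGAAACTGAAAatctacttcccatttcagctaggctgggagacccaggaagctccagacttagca
Bst2, chr8:71537423-71537722, minus strand: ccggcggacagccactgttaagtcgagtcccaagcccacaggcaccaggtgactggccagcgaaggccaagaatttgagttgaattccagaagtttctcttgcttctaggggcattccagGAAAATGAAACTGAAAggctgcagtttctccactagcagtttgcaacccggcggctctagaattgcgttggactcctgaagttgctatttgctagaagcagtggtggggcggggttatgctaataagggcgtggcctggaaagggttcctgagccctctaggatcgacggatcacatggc
Isg15 carried 3 overlapping matches, which ended 68, 62 and 56 bases before the start. The matches of Ifit1 and Ifit3 stood apart from each other, ending 94 and 75 bases before the start in Ifit1 and 146 and 112 bases in Ifit3. The matches of Bst2, which overlapped, ended 120 and 114 bases before the start. Of the 25 members with a promoter in the table, 12 (48%) held at least 1 match, against 3.99% of 27025 genes, and 7 (28%) held at least 2, against 0.266%. The letters TTCNNNGAA of the gamma-activated site, an element of interferon gamma targets, were found in 5 members (20%) and in 9.55% of all genes. A match of letters describes the sequence and does not show a bound site.

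The arrays shared 1 slide and 1 scan, no spot was saturated, and 45.4% to 51.0% of probes on each array were well above background. Probes printed 10 times on each array had a median SD between 0.04 and 0.08 on the log2 scale, which is spot error within an array. With 1 array in each group there is no replicate of any culture, so no difference between 2 groups below has a test. Levels are log2 intensity minus the 75th percentile of the array, differences are log2 differences between 2 arrays, and a difference of at least 1 (2-fold) was counted. The RNA is from whole cultures, in which fewer cells of a type and less RNA per cell cannot be told apart. Control and both tumour-derived arrays lay in row 2 of the slide and the others in row 1. Slide row therefore cannot be told apart from Trp53 loss minus control or from either tumour-derived minus source difference. Control and Trp53 loss lay in column 4, both Pik3ca/Trp53 arrays in column 2 and both Apc/Trp53 arrays in column 1. Slide column cannot be told apart from any difference between a double-mutant line and Trp53 loss or control, or between the 2 lines. The Trp53 probe read 0.89 in control, gave only background signal for the arrays Trp53 loss, Pik3ca/Trp53 and Apc/Trp53 tumour-derived, and read -1.62 in Pik3ca/Trp53 tumour-derived and -3.57 in Apc/Trp53. Its place relative to the deleted part is not given in the sources used here. All 10 general epithelial markers were well above background on every array, and 8 to 10 of 10 oviduct secretory markers were. The levels of the secretory markers still differed. In Pik3ca/Trp53 tumour-derived 5 of 10 were at least 2-fold lower than in its source and 1 higher, against 11.3% and 14.1% of genes. Msx1 (260-fold) and Wt1 (at least 76.7-fold) were lowered most. In Apc/Trp53 tumour-derived 1 of 9 measured was lower than in its source and 4 higher, against 8.04% and 11.3%.

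The members separated the arrays into 3 with high and 3 with low levels. In the order of groups given above, the mean level of the 33 members was 0.02, -0.30, 2.26, 2.09, 0.22 and 2.46. It was thus high in the Pik3ca/Trp53 culture before and after growth under the skin, but in the Apc/Trp53 line only after it. For 29 of 33 members the 3 highest levels were those of these 3 arrays, an order that 9.94% of 16017 genes showed. This order was chosen after the values were seen. The 4 exceptions were Bst2, Epsti1, Oasl1 and Xaf1. The highest level lay in Apc/Trp53 tumour-derived for 16 members, in Pik3ca/Trp53 tumour-derived for 9 and in Pik3ca/Trp53 for 8, and the lowest lay in Trp53 loss for 23. By brightest probe, all 33 were well above background on each of the 3 high arrays and 30, 31 and 31 in control, Trp53 loss and Apc/Trp53. Nothing below is compared between genes by level, since each probe has its own brightness.

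**Figure D1:**
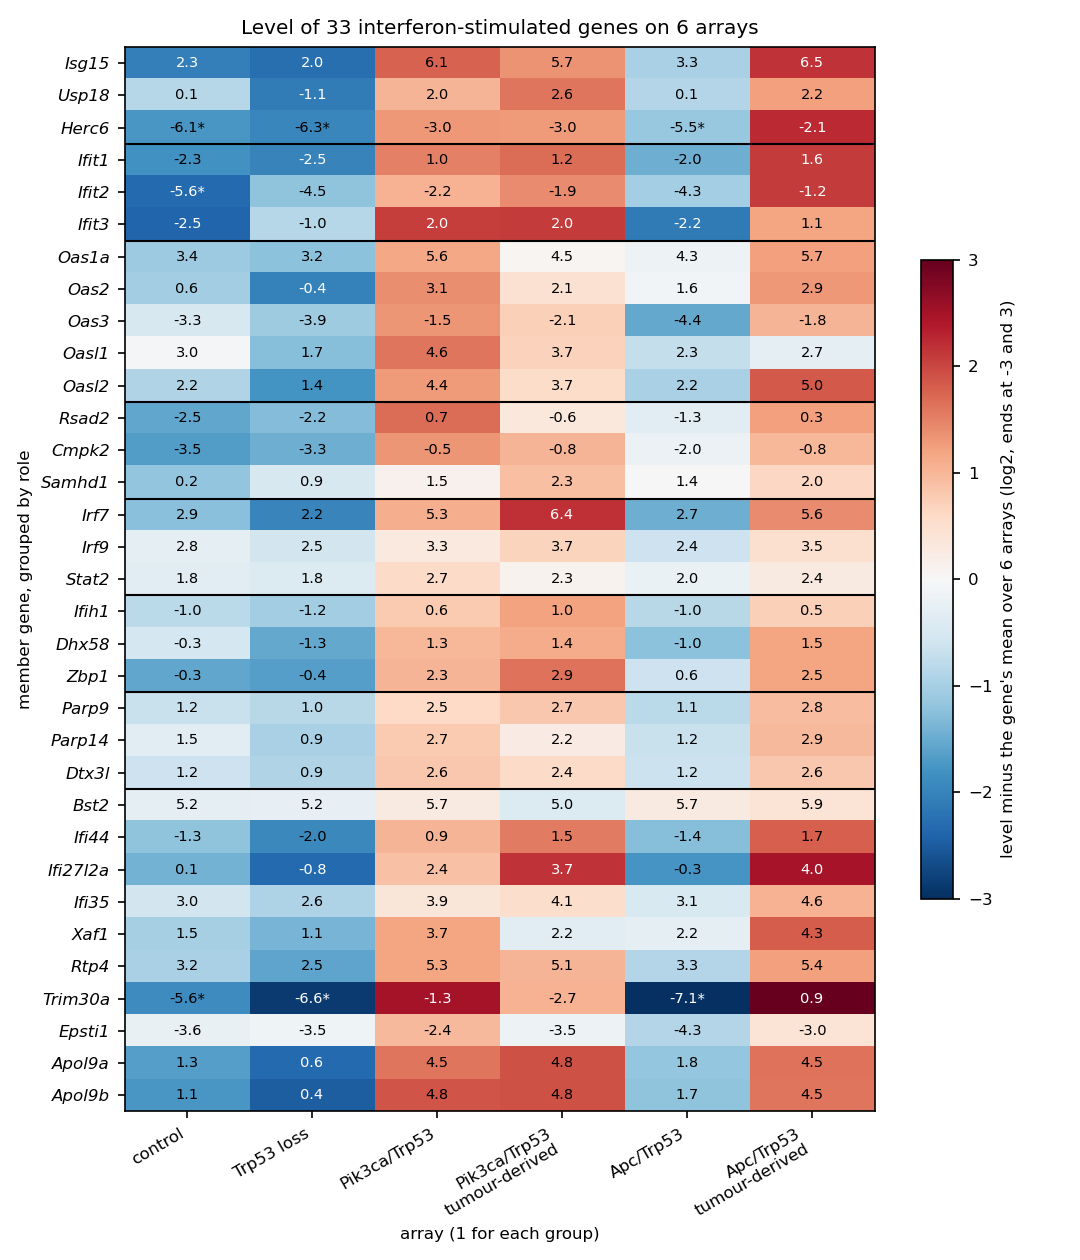
Level of each of the 33 measured genes (rows, grouped by role and separated by black lines) on each of the 6 arrays (columns). Numbers are log2 intensity minus the 75th percentile of the array, an asterisk marks a signal not well above background, and colour is the level minus the mean of that gene over the 6 arrays. The Pik3ca/Trp53, Pik3ca/Trp53 tumour-derived and Apc/Trp53 tumour-derived columns are mostly red, and Bst2, Stat2 and Irf9 are the palest rows.

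The transcription factors among the members differed widely in how far they moved. Irf7, the factor that drives production of further interferon alpha, had levels of 2.93, 2.20, 5.27, 6.36, 2.72 and 5.59. It was 8.87-fold higher in Pik3ca/Trp53 than in Trp53 loss and 7.12-fold higher in the Apc tumour-derived culture than in its source. Irf9, the DNA-binding partner of STAT2, had levels of 2.76, 2.48, 3.33, 3.72, 2.43 and 3.53, with the same 3 arrays on top but a range of 2.44-fold in all. Stat2 read 1.82, 1.76, 2.74, 2.26, 1.97 and 2.43 by its brightest probe and varied 1.99-fold over the 6 arrays. A second Stat2 probe was well above background in Apc/Trp53 alone, and its inclusion lowered the mean difference of the Apc pair to 0.23.

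All 3 sensors of foreign nucleic acid were high on the same 3 arrays. Ifih1 encodes MDA5, a sensor of long double-stranded RNA, and read -0.99, -1.22, 0.60, 1.04, -1.01 and 0.54. Dhx58 encodes LGP2, which modulates MDA5 and RIG-I, and read -0.28, -1.28, 1.26, 1.38, -0.97 and 1.45. Zbp1, which senses Z-form nucleic acid and can trigger necroptosis, read -0.29, -0.40, 2.28, 2.90, 0.64 and 2.45. For each of these genes the 3 high arrays lay above the 3 low ones with no overlap. Differences of Pik3ca/Trp53 from Trp53 loss were 1.82, 2.53 and 2.93, and those of the Apc pair 1.55, 2.42 and 1.89, for Ifih1, Dhx58 and Zbp1.

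The ISG15 system attaches the ubiquitin-like protein ISG15 to other proteins and removes it again. Isg15 itself had levels of 2.26, 2.05, 6.09, 5.66, 3.34 and 6.48, and was 16.5-fold higher in Pik3ca/Trp53 than in Trp53 loss. Usp18, which removes ISG15 and also damps signalling at the type I receptor, read 0.12, -1.11, 2.0, 2.58, 0.09 and 2.21. Herc6, the ligase for ISG15 in mice, was not well above background in control, Trp53 loss and Apc/Trp53 and read -3.01 in Pik3ca/Trp53, -3.04 in Pik3ca/Trp53 tumour-derived and -2.09 in Apc/Trp53 tumour-derived. Its signal was at least 2.95-fold higher in Pik3ca/Trp53 than in Trp53 loss and at least 6.93-fold higher in the Apc tumour-derived culture than in its source. Such lower bounds replace a dim signal by the background limit of its array, which is the faintest level that still counted as detected. They hold for the processed intensities: with normexp background correction, which adds an offset of 50 to every signal, the Herc6 differences were 1.72-fold and 2.31-fold.

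The IFIT proteins, which bind viral RNA that lacks the cap structure of the host, are encoded side by side on chromosome 19 and were high on the same 3 arrays. Ifit1 read -2.30, -2.49, 1.02, 1.19, -1.95 and 1.60. It was 11.4-fold higher in Pik3ca/Trp53 than in Trp53 loss and 11.7-fold higher in the Apc tumour-derived culture than in its source, while the Pik3ca pair differed 1.13-fold. Ifit2 was not well above background in control and read -4.50, -2.24, -1.86, -4.31 and -1.19 on the other arrays. Ifit3 read -2.48, -0.96, 1.96, 1.98, -2.24 and 1.08, and was higher in Trp53 loss than in control (2.88-fold). The nearly identical Ifit3b, which is not a member and could share probe signal with Ifit3, had levels of -3.49, -2.31, 0.79, 1.33, -3.39 and 0.00.

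The OAS enzymes are activated by double-stranded RNA and make short adenylate chains that set off the breakdown of RNA, and the OASL proteins are their relatives. Oas1a, which has several close copies on chromosome 5 that its probe may also detect, read 3.37, 3.23, 5.62, 4.52, 4.29 and 5.70. Oas2 read 0.62, -0.39, 3.06, 2.12, 1.57 and 2.94, and was 10.9-fold higher in Pik3ca/Trp53 than in Trp53 loss. Oas3 read -3.35, -3.92, -1.54, -2.14, -4.38 and -1.83. In these 3 genes, and in Oasl1 and Oasl2, the Pik3ca tumour-derived level lay below that of its source, by 0.60 to 1.1 log2 units. Oasl2 read 2.25, 1.36, 4.43, 3.70, 2.18 and 4.98. Oasl1 read 2.96, 1.71, 4.59, 3.68, 2.28 and 2.72, so that its Apc tumour-derived level lay below control.

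Enzymes that act on nucleotides included a neighbouring pair on chromosome 12, Rsad2 and Cmpk2. Rsad2 encodes viperin, which makes a chain-terminating nucleotide, and read -2.50, -2.23, 0.75, -0.61, -1.28 and 0.30. Cmpk2, a mitochondrial nucleotide kinase, read -3.50, -3.29, -0.50, -0.80, -2.01 and -0.82. Both were highest in Pik3ca/Trp53, with Rsad2 at least 6.95-fold (3.24-fold with normexp) and Cmpk2 6.94-fold above Trp53 loss. Over the alternatives in processing the Cmpk2 difference lay between 1.94 and 2.86 log2 units. Samhd1, which hydrolyses deoxynucleotides, read 0.17, 0.89, 1.5, 2.27, 1.36 and 2.0 and did not differ by 2-fold in any of the 7 comparisons by the mean of its 3 probes.

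Parp9 and Dtx3l, which form a complex that modifies ubiquitin, and Parp14, a mono-ADP-ribosyltransferase, lie together on chromosome 16. Parp9 read 1.19, 1.03, 2.46, 2.67, 1.05 and 2.80, Dtx3l 1.20, 0.92, 2.63, 2.39, 1.16 and 2.62, and Parp14 1.55, 0.91, 2.68, 2.15, 1.21 and 2.86. The 3 genes kept close to each other, with differences of 1.44 to 1.71 between Pik3ca/Trp53 and Trp53 loss, 1.46 to 1.78 in the Apc pair and -0.52 to 0.20 in the Pik3ca pair.

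Among the remaining members, Trim30a had the widest range and Bst2 the narrowest. Trim30a, a ligase that restrains inflammatory signalling, was not well above background in control, Trp53 loss and Apc/Trp53 and read -1.26 in Pik3ca/Trp53, -2.70 in Pik3ca/Trp53 tumour-derived and 0.88 in Apc/Trp53 tumour-derived. It was at least 54.1-fold higher in the Apc tumour-derived culture than in its source, and 11.3-fold with normexp background correction. Bst2, or tetherin, which holds budding virus at the cell surface, read 5.17, 5.21, 5.74, 5.04, 5.74 and 5.87, a range of 1.78-fold, with the Pik3ca tumour-derived array lowest. Ifi27l2a, which encodes a mitochondrial or nuclear membrane protein, read 0.07, -0.84, 2.38, 3.66, -0.28 and 3.96 and spanned 28.0-fold. Apol9a and Apol9b are apolipoprotein L copies on chromosome 15 with nearly the same sequence, so their probes may each detect both. Apol9b read 1.13, 0.41, 4.77, 4.78, 1.67 and 4.49 and Apol9a 1.27, 0.59, 4.52, 4.84, 1.76 and 4.54. Xaf1, a pro-apoptotic gene, read 1.53, 1.14, 3.71, 2.20, 2.24 and 4.35, which placed Apc/Trp53 just above Pik3ca/Trp53 tumour-derived. Its 2 probes differed in the Pik3ca pair by an SD of 0.92. Epsti1 read -3.62, -3.54, -2.43, -3.55, -4.28 and -3.0, so its Pik3ca tumour-derived level fell among the low arrays. Rtp4, Ifi44 and Ifi35 followed the order of most members, with ranges of 7.02-fold, 13.3-fold and 3.91-fold.

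Trp53 loss minus control asked what removal of p53 alone did. Most members were slightly lower in Trp53 loss: 25 of 31 measured lay below 0, with a median difference of -0.28 against 0.05 for all genes. With arrays scaled to their median, 11 of 31 lay above 0 in place of 6, with medians of -0.11 and 0.22. At least 2-fold lower were Oasl1 (2.54-fold), Usp18 (2.35-fold) and Oas2 (2.01-fold), 3 of 31, against 7.38% of all 14361 genes measured. At least 2-fold higher were Ifit3 and, as measured, Ifit2, against 6.02% of genes. The Ifit2 difference of 1.13 rests on a control signal not well above background, and with that signal at the background limit it was -0.04. Dhx58 lay just short of the count at 2.0-fold lower.

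Pik3ca/Trp53 minus Trp53 loss asked what the PI3-kinase mutant added. All 33 members were higher in Pik3ca/Trp53, 29 of them at least 2-fold, against 9.72% of 14237 genes. None was at least 2-fold lower, against 8.01%. The median member difference was 2.80 and that of all genes 0.05. Among the largest differences were those of Trim30a (at least 9.93-fold, and 3.37-fold with normexp), Apol9b (20.5-fold), Isg15 (16.5-fold) and Apol9a (15.2-fold). Bst2 (0.53), Samhd1 (0.55), Irf9 (0.65) and Stat2 (0.99) stayed under 2-fold. With control in place of Trp53 loss the median was 2.18, and 27 of 33 members were at least 2-fold higher, against 11.5% of 14331 genes. Pik3ca/Trp53 and Trp53 loss both lay in row 1 of the slide, in columns 2 and 4.

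Markers of other cells were measured beside this. Of 13 leukocyte markers, 6 were well above background in Pik3ca/Trp53 and 5 in Trp53 loss, and their summed level was lower in Pik3ca/Trp53 (3.56 against 4.49, log2). Ptprc, the pan-leukocyte gene CD45, was not well above background on either array. Neither were Cd79a, Adgre1, Tyrobp, Ncr1 and Nkg7, which were above it on none of the 6 arrays. Lyz2 was at least 2.13-fold higher in Pik3ca/Trp53. Of 10 plasmacytoid dendritic cell markers, Ccr9, Flt3 and Cox6a2 were above background on none of the 6 arrays. The summed level of the list, which includes the member Bst2, was 7.33 in Pik3ca/Trp53 and 7.79 in Trp53 loss. No fibroblast marker had its brightest probe well above background on either array, but another probe of Pdgfra was at least 2.14-fold higher in Pik3ca/Trp53 than in Trp53 loss. Of 10 endothelial markers, 3 were well above background in Pik3ca/Trp53 and 4 in Trp53 loss, and Tek, Tie1, Emcn and Cldn5 were so on no array. Their summed level was higher in Pik3ca/Trp53 (1.63 against 0.48, log2), with Vwf 3.58-fold and Esam 2.63-fold higher. Kdr went the other way and was at least 2.4-fold lower in Pik3ca/Trp53 than in Trp53 loss. Of 10 markers of multiciliated cells, the other main epithelial type of the oviduct, the numbers well above background were 10, 8, 5, 7, 8 and 6, fewest on the arrays with high members. Their summed level was 4.0, 2.60, 2.34, 2.69, 2.59 and 3.19 (log2), and 4 of 8 measured were at least 2-fold lower in Pik3ca/Trp53 than in Trp53 loss. The part of any of these markers in the member values was not tested.

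Apc/Trp53 minus Trp53 loss asked the same of the Apc allele. Here 8 of 31 members were at least 2-fold higher, against 5.36% of 14463 genes, and the median difference was 0.57 against 0.02 for all genes. Oas2 was 3.87-fold higher, Isg15 and Cmpk2 both 2.44-fold, Apol9b 2.39-fold, Usp18 2.31-fold, Apol9a 2.25-fold, Zbp1 2.16-fold and Oas1a 2.10-fold. Ifit3 was 2.43-fold lower, the 1 member so called, against 5.26% of genes. Against control in place of Trp53 loss, 3 of 31 members were at least 2-fold higher, a share near the 8.17% of 14598 genes, and the median was 0.10.

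The 2 double-mutant cultures before inoculation were set directly against each other, since neither is the Trp53 loss array. They shared row 1 of the slide but lay in columns 2 and 1. In Pik3ca/Trp53 28 of 33 members were at least 2-fold higher than in Apc/Trp53, against 8.15% of 14442 genes, and none was at least 2-fold lower, against 6.88%. The median difference was 2.05, with all genes at 0.03. Ifit3 was 18.4-fold higher, Trim30a at least 12.3-fold (3.63-fold with normexp), Apol9b 8.60-fold and Ifit1 7.84-fold. Bst2 (-0.00), Samhd1 (0.15), Stat2 (0.24), Ifi35 (0.83) and Irf9 (0.84) did not reach 2-fold. The comparisons with Trp53 loss and between the 2 lines share arrays, so their member values are set side by side and not treated as separate support.

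**Figure D2:**
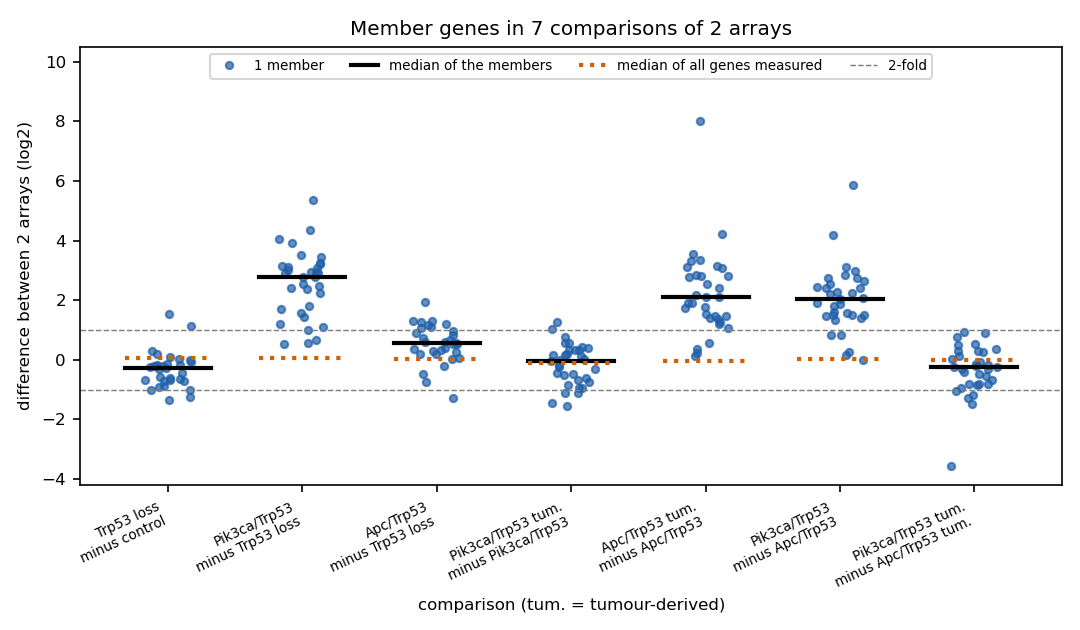
Log2 difference between 2 arrays for every measured member (points, dim signals as measured) in 7 comparisons, with the median of the members (black line), the median of all genes measured (dotted line) and 2-fold in either direction (dashed lines). Members sit well above the other genes in Pik3ca/Trp53 minus Trp53 loss, Apc/Trp53 tumour-derived minus its source, and Pik3ca/Trp53 minus Apc/Trp53, with medians of 2.80, 2.10 and 2.05.

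Growth under the skin was followed in both lines by comparing each tumour-derived culture with its source, and the members behaved differently in the 2 pairs. In the Apc pair all 33 members were higher in the tumour-derived culture (31 when arrays were scaled to their median), 29 at least 2-fold, against 11.3% of 14888 genes, and none was at least 2-fold lower, against 8.04%. The median was 2.10 and that of all genes -0.03. Trim30a (at least 54.1-fold) and Herc6 (at least 6.93-fold) have only bounds, and among the others Ifi27l2a (18.9-fold), Ifit1 (11.7-fold), Ifit3 (10.0-fold) and Isg15 (8.83-fold) differed most. Oasl1 (0.56), Samhd1 (0.37), Stat2 (0.23) and Bst2 (0.13) differed least.

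In the Pik3ca pair the members were spread about 0, with 16 higher and 17 lower in the tumour-derived culture and a median of -0.03 against -0.09 for all genes. Ifi27l2a (2.42-fold) and Irf7 (2.05-fold) were at least 2-fold higher, 2 of 33 against 14.1% of 14727 genes. Rsad2 (2.93-fold), Trim30a (2.72-fold), Epsti1 (2.17-fold) and Oas1a (2.14-fold) were at least 2-fold lower, 4 of 33 against 11.3%. Both shares are near to those of the background or below them. Isg15, Ifit1, Ifit3, Parp9 and Apol9b each differed by less than 0.5 log2 units.

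Set against each other, 32 of 33 members had a larger difference in the Apc pair than in the Pik3ca pair, against 52.4% of 13932 genes measured in both, with Samhd1 the exception. The signs were opposite for 17 of 33 members, against 50.5% of genes. The median of the Apc pair difference minus the Pik3ca pair difference was 2.32 over the members and 0.04 over all genes. With 1 pair of each genotype, the difference between the pairs was not tested.

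**Figure D3:**
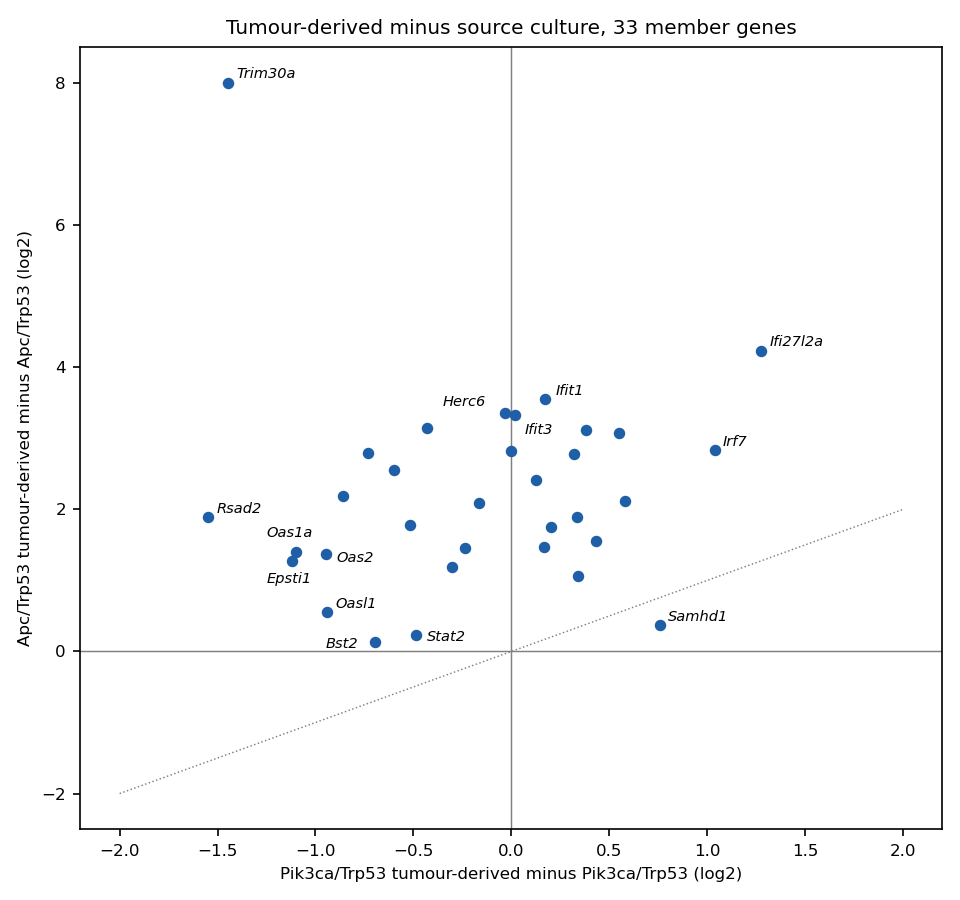
Log2 difference of tumour-derived minus source culture for the 33 members, in the Pik3ca pair (horizontal) and the Apc pair (vertical), with the dotted line marking equal differences and dim signals drawn as measured. All points lie above 0 on the vertical axis and spread to both sides of 0 on the horizontal axis, and Samhd1 alone lies below the dotted line.

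Markers of other cells also differed in these pairs. Ptprc in the Apc pair went from a signal not well above background to -3.10 in the tumour-derived culture (at least 3.44-fold). That was the only array on which it was above background. Cd68 was 4.53-fold lower in that pair, and the summed leukocyte level, to which bright genes add most, fell from 3.41 to 2.75. The median difference of the 6 leukocyte markers measured in the Apc pair was 0.28, however. In the Pik3ca pair their median was 0.51, and the summed level rose from 3.56 to 4.17. Fibroblast markers with a brightest probe well above background numbered 0 of 10 before and 2 after in the Apc pair, with a summed level of -3.02 before and -1.18 after. In the Pik3ca pair they numbered 0 before and 4 after by the same rule, and Postn was at least 86.8-fold higher in the tumour-derived culture, with a summed level of -2.45 before and 3.13 after. Besides Postn, Col1a1, Col1a2 and Pdgfra were at least 1.19-fold, 1.94-fold and 2.18-fold higher in the Pik3ca pair. In the Apc pair Pdgfra was at least 7.79-fold and Pdgfrb at least 1.73-fold higher. The summed endothelial level went from 1.63 to 2.34 in the Apc pair, with Esam 2.99-fold and Vwf 2.81-fold higher but Cdh5 5.34-fold lower. In the Pik3ca pair the summed endothelial level went from 1.63 to -0.32. There Esam was at least 49.5-fold and Vwf 5.42-fold lower, while Erg was at least 7.10-fold higher. The part of these markers in the member values was not tested.

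A fit across both pairs, with genotype as a block, compared the tumour-derived arrays with the arrays before inoculation by limma. 30 of 33 members had a higher estimate in the tumour-derived cultures (26 when arrays were scaled to their median). The share of all genes with a higher estimate was not counted. The estimate averages the 2 pairs, and members were higher in 33 of 33 cases in the Apc pair but in 16 in the Pik3ca pair. It therefore does not show a change common to both lines. Of the 33 members 0 passed an adjusted p of 0.05, as did 0% of 14219 genes. The smallest adjusted p was 0.991 by limma with Benjamini-Hochberg adjustment, with 1 residual degree of freedom. At an unadjusted p of 0.05, 0 members passed, against 3.93% of genes (559). The number of members at that unadjusted level was 2 with normexp background correction, 2 without a filter on dim probes, 2 with probes above background on all 6 arrays, 1 with quantile normalization and 0 without the block.

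Pik3ca/Trp53 tumour-derived minus Apc/Trp53 tumour-derived compared the endpoints of the 2 lines, both in row 2 but in columns 2 and 1. None of 33 members was at least 2-fold higher, against 16.8% of 15289 genes, and 5 were at least 2-fold lower, against 15.9%. These were Trim30a (12.0-fold), Xaf1 (2.79-fold, with 2 probes that differed by an SD of 0.95), Oasl2 (2.43-fold), Oas1a (2.26-fold) and Rsad2 (2.06-fold). The median member difference was -0.24 and that of all genes -0.01. Before inoculation the same lines differed by a median of 2.05 over the members.

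Upstream of the members, the interferon genes were mostly not detected, and the receptors were present throughout. Of 18 interferon ligand genes with a probe, 10 were detected above background on no array, among them Ifnb1, Ifna4 and Ifng. Ifne, the interferon of the reproductive tract, was the one ligand above background on every array, with levels of 0.24, -0.33, 1.54, 0.85, -0.54 and -1.90. It was 3.66-fold higher in Pik3ca/Trp53 than in Trp53 loss, together with the members, and 2.57-fold lower in the Apc tumour-derived culture than in its source, where the members were higher. Ifnk, an interferon of keratinocytes, was above background in Trp53 loss (-1.91) and Apc/Trp53 tumour-derived (-3.71). Ifnl3, a type III interferon, was above background on 4 arrays, with levels from -4.54 to -3.20. Ifna1, Ifna5, Ifna9, Ifna14 and Ifnab were above background on 1 or 2 arrays each.

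The 6 receptor subunits were above background on all arrays and none differed by 2-fold in any comparison except the one between the tumour-derived cultures. Ifnar1, a subunit of the type I receptor, read 1.00, 0.71, 0.38, 0.41, 0.72 and 0.97, and Ifnar2 2.94, 3.04, 2.21, 3.11, 2.37 and 2.52. Ifnlr1, the specific subunit of the type III receptor, read 2.36, 1.89, 2.14, 2.69, 1.59 and 1.5 and was 2.29-fold higher in Pik3ca/Trp53 tumour-derived than in Apc/Trp53 tumour-derived. Il10rb, Ifngr1 and Ifngr2 read 2.38 to 3.43. The order of the members was not seen in any receptor subunit.

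Among genes of receptor signalling, the kinases varied by less than 2-fold between Pik3ca/Trp53 and Trp53 loss and in both pairs. Jak1 read 2.74, 3.13, 2.44, 2.56, 2.71 and 2.44, Tyk2 -0.24, -0.64, -0.35, -0.53, -0.47 and -0.42, and Jak2 1.74, 2.64, 2.83, 3.07, 2.44 and 1.84. Socs1, which inhibits the JAK kinases, read -2.36, -1.82, -1.81, -1.86, -0.61 and -0.73 and was high in both Apc cultures instead. Socs3, also an inhibitor, read 1.62, 3.06, 2.37, 3.47, 2.69 and 2.54. Irf1, a factor induced by interferon, read 3.16, 3.06, 3.82, 3.46, 2.80 and 3.40, with the same 3 arrays on top as the members but under 2-fold in each comparison by the mean of its 2 probes. Irf2 (-1.0 to -0.06), Stat3 (3.55 to 4.81), Pias1 (1.13 to 1.48) and the phosphatases Ptpn2 (1.93 to 2.41), Ptpn6 (-0.16 to 1.44) and Ptpn11 (3.77 to 4.34) were the others reported.

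**Figure D4:**
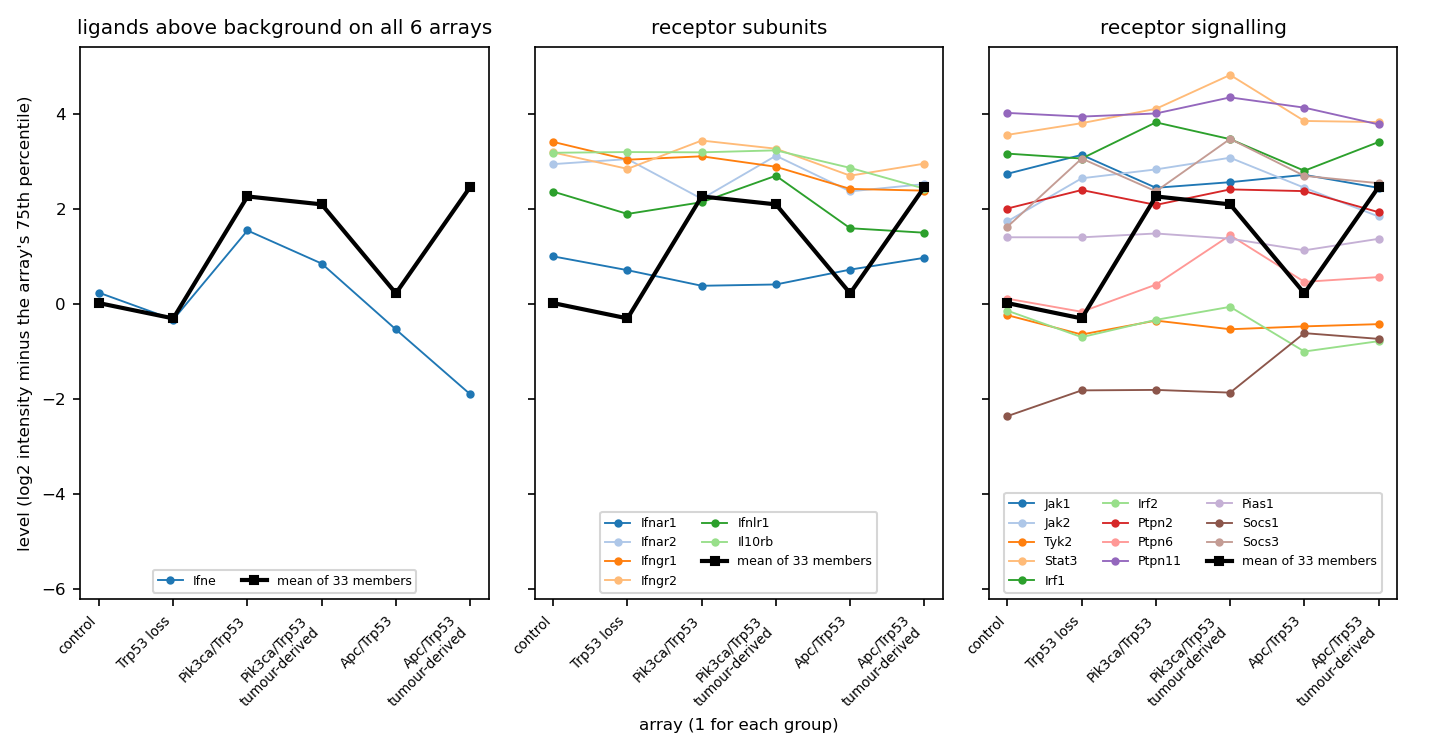
Level (log2 intensity minus the 75th percentile of the array) of the interferon ligand detected on all 6 arrays, of the 6 receptor subunits and of 12 signalling genes, with the mean of the 33 members in black. Ifne is above its control level in Pik3ca/Trp53 (1.54), it is lowest in Apc/Trp53 tumour-derived (-1.90), and the receptors are nearly flat.

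Further genes of nucleic acid sensing were also measured. In Pik3ca/Trp53 2 of 21 were at least 2-fold higher than in Trp53 loss, a share near the 9.72% of all genes. None was at least 2-fold lower, against 8.01%. Adar, which edits double-stranded RNA, was 2.11-fold higher, and the largest difference in the list was 1.3 log2 units. Of 22 measured in the Apc pair, 3 were at least 2-fold higher, a share near the 11.3% of all genes: Adar (2.26-fold), the RNA-activated kinase gene Eif2ak2 (2.27-fold) and, as measured, Tlr7 (at least 1.98-fold). Cgas, the sensor of cytosolic DNA, was 2.34-fold lower there, with levels of -0.65, -0.49, -0.52, -1.34, -0.90 and -2.13. Sting1, its partner, read 5.17, 5.55, 5.62, 5.50, 4.92 and 4.40 and Mavs, the adaptor of the RNA sensors, 2.18, 2.70, 2.16, 2.31, 2.37 and 1.97. Of 14 genes that silence repeats in chromatin, Uhrf1 was at least 2-fold higher in Pik3ca/Trp53 than in Trp53 loss as measured (at least 1.76-fold). That is 1 of 14, against 9.72% of all genes. None was 2-fold apart in the Apc pair. In the Pik3ca pair Dnmt3b (2.38-fold) and Atrx (2.18-fold) were lower, 2 of 14 against 11.3% of genes. Dnmt3b was 2.20-fold higher in Apc/Trp53 than in Trp53 loss, 1 of 14 against 5.36%.

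Interferon-induced genes outside the members behaved largely as the members did in some comparisons but not in all. In Pik3ca/Trp53 33 of 50 measured were at least 2-fold higher than in Trp53 loss and 1 was at least 2-fold lower (median 1.55), against the same 9.72% and 8.01% of genes. In the Apc pair 34 of 51 were at least 2-fold higher (median 1.37), against 11.3% of genes. In the Pik3ca pair 5 of 51 were higher and 8 lower (median -0.30), near the 14.1% and 11.3% of all genes. In Apc/Trp53 3 of 49 were at least 2-fold higher than in Trp53 loss and 5 lower, near the 5.36% and 5.26% of genes. Of the members, 8 of 31 were higher in that comparison. Between the tumour-derived cultures 9 of 52 were higher in the Pik3ca line and 11 lower, against 16.8% and 15.9% of genes. Of the 33 members, 0 were higher there and 5 lower. The immunoproteasome gene Psmb8 read 0.84, 0.75, 3.51, 2.96, 0.90 and 4.02 and the guanylate-binding protein gene Gbp3 -1.47, -1.10, 2.13, 1.91, -0.18 and 2.86. Ddx60, a helicase, was at least 11.1-fold higher in Pik3ca/Trp53 than in Trp53 loss and at least 17.6-fold higher in the Apc pair. Some did not follow the members: Phf11d read -0.43, -1.14, 2.13, 2.25, -1.87 and -1.72, high in both Pik3ca cultures alone. Slfn8 was above background in Pik3ca/Trp53 tumour-derived alone, at least 23.7-fold above its source. Ifitm1 read 6.29, 7.28, 7.54, 3.86, 7.74 and 7.31 and was 12.8-fold lower in Pik3ca/Trp53 tumour-derived than in its source.

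The promoter letters were set beside the values. In Pik3ca/Trp53 minus Trp53 loss, the 12 members whose promoter holds the response element letters had a median difference of 2.86 and the 13 without them 2.26, with dim signals at the background limit and with ranges of 0.53 to 4.36 and 0.55 to 3.15. For the Apc pair the medians were 2.67 and 1.47, with ranges of 0.13 to 5.76 and 0.37 to 3.12 on the same terms. The ranges overlap, and the letters are present in both Isg15 (4.04 and 3.14) and Bst2 (0.53 and 0.13). In the Pik3ca pair the medians were -0.46 and -0.03. The members without a promoter in the table were Usp18, Oas2, Dhx58, Zbp1, Parp9, Parp14, Rtp4, Ifi27l2a, Mx1 and Mx2.

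The members were compared with every other gene by Pearson's r over the 6 arrays, as a description in which all points share the same arrays. Among the members, Rtp4, Dtx3l and Ifit1 lay closest to the mean of the other members (r of 0.996 for each), and Bst2 (0.38), Epsti1 (0.67), Oasl1 (0.70) and Samhd1 (0.80) lay farthest from it. Among 8952 genes outside the members with a range of at least 1 log2 unit, the 10 most like the member mean were Mitd1, Ankle1, Ube2l6, Lgals9, H2-D1, H2-Q7, 8430430B14Rik, Hdac3, Daxx and Psmb8, with r from 0.986 to 0.997. Mitd1 read 0.01, -0.13, 0.92, 0.78, 0.04 and 0.90. Ube2l6, the E2 enzyme of ISG15 conjugation, read -0.98, -1.10, 0.07, -0.01, -0.86 and 0.35, and the class I histocompatibility gene H2-D1 4.72, 4.76, 5.61, 5.68, 4.96 and 5.75.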

How the data were processed

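Total RNA of 6 cultures was labelled with Cy3 and scanned, and per the submitters' processing notes the authors ran Agilent's Feature Extraction software (11.0.1.1), giving the deposited processed intensity of every spot. The genome build behind the arrays is not given in the sources used here. Control and flagged spots were left out, spots of a probe averaged, and log2 intensity was taken minus the 75th percentile of each array. Of 56605 probes, 34566 were named through RefSeq accessions (23787 genes) and 22039 were not. A gene's difference is the mean over its probes that passed background on either array, and its level is that of its brightest probe. Members with more than 1 probe numbered 13.

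The authors' deposited log2 values of 2047 probes came in a table with columns whose differences followed the scanner log2 differences with a slope of 1, apart from a constant for each pair of arrays (-0.09 to 0.35). Its centring and choice of probes stay unknown, its column medians were 0.03, -0.02, 0.15, -0.05, -0.32 and -0.20, and with a single member probe it was not used. Normexp on median signals with an offset of 50, chosen after seeing the files since the mean-signal column was not used here, was 1 of the alternatives, beside scaling to the array median, quantile normalization, filters on dim probes and control as the reference. The paired fit used limma 3.58.1 in R 4.3.3, and the rest pandas 2.3.3, numpy 2.4.6 and matplotlib 3.10.9 under Python 3.11.15. Statistics were tested on simulated data.

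The members and gene lists were chosen with earlier results of these data known. Named were all 35 members, receptors and, with some genes not reported here, signalling genes, genes of the other lists at least 2-fold apart, and the 10 genes outside the members most like their mean. Other genes named were chosen after their values were seen. With 1 array for each group, the number of arrays limits the precision.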

Additional observations from a re-analysis of the deposited data

Results flagged for a closer look

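4 members were at least 2-fold lower in the tumour-derived culture of the Pik3ca line and at least 2-fold higher in that of the Apc line, as were 2.41% of 13932 genes. With normexp 1 member in all was at least 2-fold lower in the Pik3ca pair, so the 4 do not all keep this pattern. Over the alternatives Epsti1 came as near 0 as -0.62 in the Pik3ca pair and 0.31 in the Apc pair. The Apc pair difference minus the Pik3ca pair difference was 2.40 for Epsti1, 2.50 for Oas1a, 3.45 for Rsad2 and 9.46 for Trim30a (log2). Trim30a was not well above background in Apc/Trp53, and with that signal at the background limit its Apc pair difference was 5.76 in place of 8.01. Each line has 1 pair, so the difference between the pairs was not tested.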

How the results depend on the processing

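Of 159 values recomputed under the alternatives, 137 stayed within the limits set for them and 22 moved. A reversal was scored only for medians of at least 1 in size, and 0 of those reversed. Counts and smaller medians could not be scored so. The Pik3ca pair median, for one, changed sign from -0.031 to 0.0024 with normexp. For Trp53 loss minus control, 1 member was at least 2-fold higher with normexp on median signals, against 1.91% of genes. The count was also 1 with probes above background on all 6 arrays (2.87%) and with dim signals set at their limit (4.28%). The median was -0.11 with scaling to the array median. For Pik3ca/Trp53 minus Trp53 loss the median was 2.28 with normexp, 2.53 without a filter on dim probes and 2.18 with control as reference. For Apc/Trp53 minus Trp53 loss 0 members were at least 2-fold lower with normexp, against 1.78% of genes. With control as reference 3 were higher, against 8.17% of genes, and the median was 0.10. In the Pik3ca pair 1 member was at least 2-fold lower with normexp, against 5.7% of genes. At least 2-fold higher was 1 member with the array median (12.8% of genes) and 1 without the filter (9.27%). In the Apc pair the median was 1.65 with normexp, 1.76 with the array median and 1.83 with probes above background on all 6 arrays. For Pik3ca/Trp53 minus Apc/Trp53 it was 1.44 with normexp and 1.88 with probes above background on all 6 arrays. Between the tumour-derived cultures 2 members were at least 2-fold higher and 3 lower with the array median, against 19.9% and 13.5% of genes. There 8 were lower without the filter (11.4% of genes) and 3 with probes above background on all 6 arrays (10.4%). The causes were not tested.

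Scaling to the array median moved the median of all genes to 0.22 in Trp53 loss minus control, 0.11 in Pik3ca/Trp53 minus Trp53 loss, -0.22 in the Pik3ca pair, -0.36 in the Apc pair and 0.19 between the tumour-derived cultures. In the Apc pair, 26 members were then at least 2-fold higher, against 8.4% of genes, with 13.8% of genes lower. The value table was not run as an alternative, since it holds 1 member probe. No paired analysis by replicate number was possible because the labels give no replicate numbers. Signals near background limit Herc6, Trim30a and Ifit2, which have only bounds against the arrays where they are dim.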
